A study of Mus musculus with 8 samples.

Results

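Messenger RNA of 32 genes for noncollagen matrix proteins, the enzymes that crosslink them and the proteases and inhibitors that govern their turnover was followed in 8 mouse livers. The genes were taken by name, and all 32 were found among the 40838 gene rows of the deposited counts. Bulk RNA of whole liver was sequenced in 4 libraries of a group named Lpcat3 and 4 of a group named eGFP. All were from C57BL/6 mice, an inbred laboratory strain, and both groups ate a NASH diet, which produces steatohepatitis, for 16 weeks. After the first 7 weeks the mice received an adeno-associated virus (AAV), and the diet went on for 9 weeks. AAV-TBG-Lpcat3 carried the phospholipid-remodelling enzyme Lpcat3 and AAV-TBG-eGFP carried a fluorescent protein as the control. TBG is a promoter active in hepatocytes, so the delivered gene was aimed at a cell type other than the fibroblasts that lay down fibrillar matrix. No group without the diet or without a virus was part of the comparison.

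In fibrosing liver, activated hepatic stellate cells and portal fibroblasts lay down fibrillar matrix, which lysyl oxidases crosslink and matrix metalloproteases (MMPs) and ADAMTS proteases cut. Tissue inhibitors of metalloproteases (TIMPs) block those proteases, and matricellular proteins such as tenascin C, thrombospondins and periostin tune adhesion and growth factor signals without bearing load. Hepatocytes themselves secrete plasma fibronectin, and macrophages and neutrophils are known sources of several MMPs.

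The libraries held 22433625 to 25651874 counts. Lpcat3 mRNA (NCBI gene 14792) was at 158, 148, 133 and 173 CPM (reads relative to the TMM-scaled total of the library) in eGFP replicates 1 to 4 and at 274, 401, 465 and 311 CPM in Lpcat3 replicates 1 to 4, so every library matched its label. Its log2 fold change was 1.25 ± 0.17 (SE), with an edgeR adjusted p of 0.164, which misses the threshold of 0.05. Of 17438 genes tested, 1 other gene passed edgeR's quasi-likelihood test at an adjusted p under 0.05. Markers of the labelled tissue were abundant, with a summed level of 9 hepatocyte genes between 41100 and 82960 CPM. The labels do not say that the libraries came from separate animals, so p-values measure the spread between these libraries.

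None of the 32 matrix genes passed (0 of 32, edgeR adjusted p from 0.564 to 0.995), where 0.00573% of all genes did. At an unadjusted p under 0.05 in edgeR, 1 of 32 differed, against 8.48% of all genes. It was lower (5.18% of all genes were lower and 3.3% higher by that rule), and DESeq2 also called 0 at an adjusted p under 0.05. The one was Postn, which was also the one gene of the 32 whose groups did not overlap (1 of 32, beside 2.24% of all genes without overlap in that direction). By sign alone 22 of 32 log2 fold changes were below 0, with a median of -0.11, where 51.5% of all genes were below 0 with a median of -0.01. That lean depended on which libraries were used. The count of negative fold changes was 10 of 32, with a median of 0.06, without eGFP replicate 3 and Lpcat3 replicate 3. In these genes eGFP replicate 3 most often held the highest level and Lpcat3 replicate 3 the lowest. Leaving the pair out is thus no independent check. The count was 26 of 32 without eGFP replicate 3 alone (median -0.12) and 17 of 32 without Lpcat3 replicate 3 alone (median -0.02).

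Divided by exon length, the levels of the 32 genes spanned 3 orders of magnitude. Fn1, which encodes fibronectin and is made by hepatocytes, led with 283 CPM per kilobase of exon over the 8 libraries. The small leucine-rich proteoglycans decorin (Dcn, 116) and biglycan (Bgn, 72.7) followed, then the collagen-binding protein Sparc (34.5), the protease Mmp19 (16.3) and the inhibitor Timp3 (12.7) on the same scale. At the bottom were Mmp9 (0.251), the large proteoglycan Vcan (0.331) and the crosslinking enzyme Lox (0.466). In CPM not divided by length, Fn1 alone made up 65.5% to 81.0% of the summed reads of the 32 genes, depending on the library. The sum over the other genes was therefore also taken, and lay between 839 and 1123 CPM in the eGFP libraries and between 693 and 1039 CPM in the Lpcat3 libraries.

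**Figure D1:**
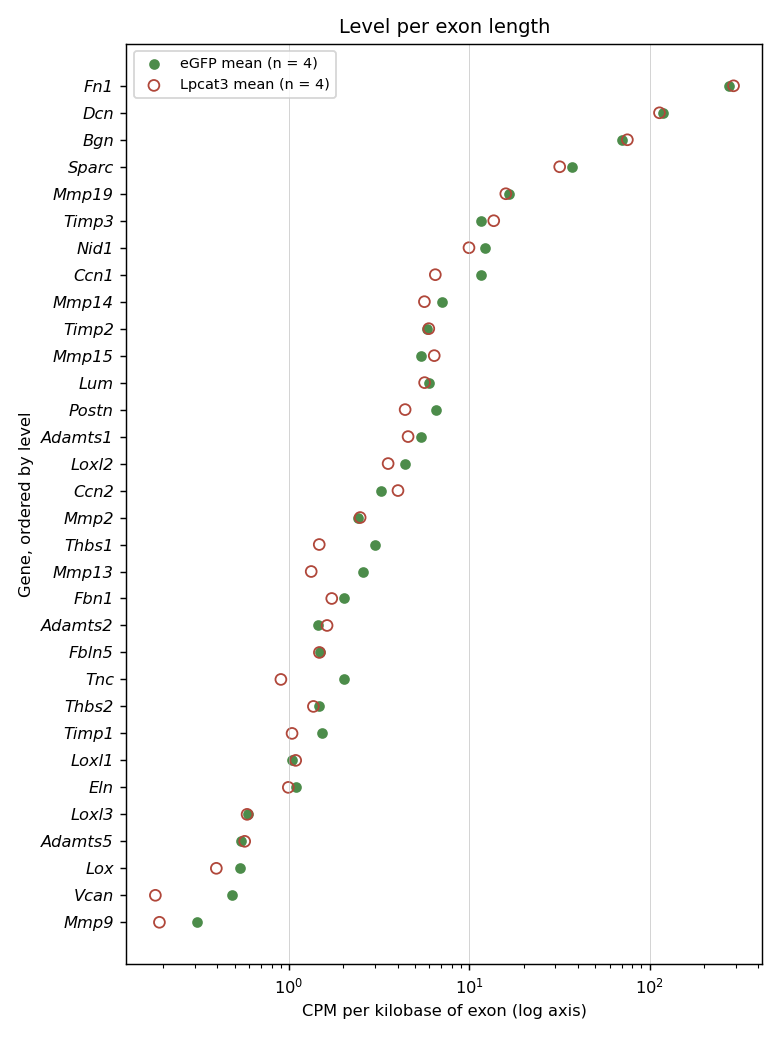
Mean level of each of the 32 genes in the eGFP (filled) and Lpcat3 (open) groups, n = 4 each, as CPM per kilobase of exon on a log axis. Fn1, Dcn and Bgn lead, and Mmp9, Vcan and Lox are lowest. The group means are farthest apart for Vcan, Tnc, Thbs1 and Mmp13.

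Lpcat3 replicate 3 and eGFP replicate 3 stood apart from the rest of their groups in these genes. Lpcat3 replicate 3 held the lowest level of 24 of the 32 genes (75%), while it held the lowest level of 20.8% of all genes tested. For each gene its level was divided by the median of the other 3 Lpcat3 libraries. The median of these ratios was 0.608 over the 32 genes (1.0 over all genes). The ratio was 0.5 or less for 15 of 32 genes, against 4.79% of all genes. eGFP replicate 3 held the highest level of 12 of 32 (37.5%, against 22.4% of all genes). In it 6 of 32 genes were at least 2-fold above the median of the other eGFP libraries, against 2.74% of all genes, although its median ratio over the 32 was 1.01. The shift in Lpcat3 replicate 3 was thus broad, and that in eGFP replicate 3 was carried by a few genes. eGFP replicate 4 was low across the 32 genes, at a median log2 difference of -0.41 from the eGFP mean. Only 4 of 32 genes in it were above the eGFP median. The matching values over all genes were not taken. Without eGFP replicate 4 alone, 26 of 32 log2 fold changes were below 0, with a median of -0.30 (-0.01 over all genes).

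**Figure D2:**
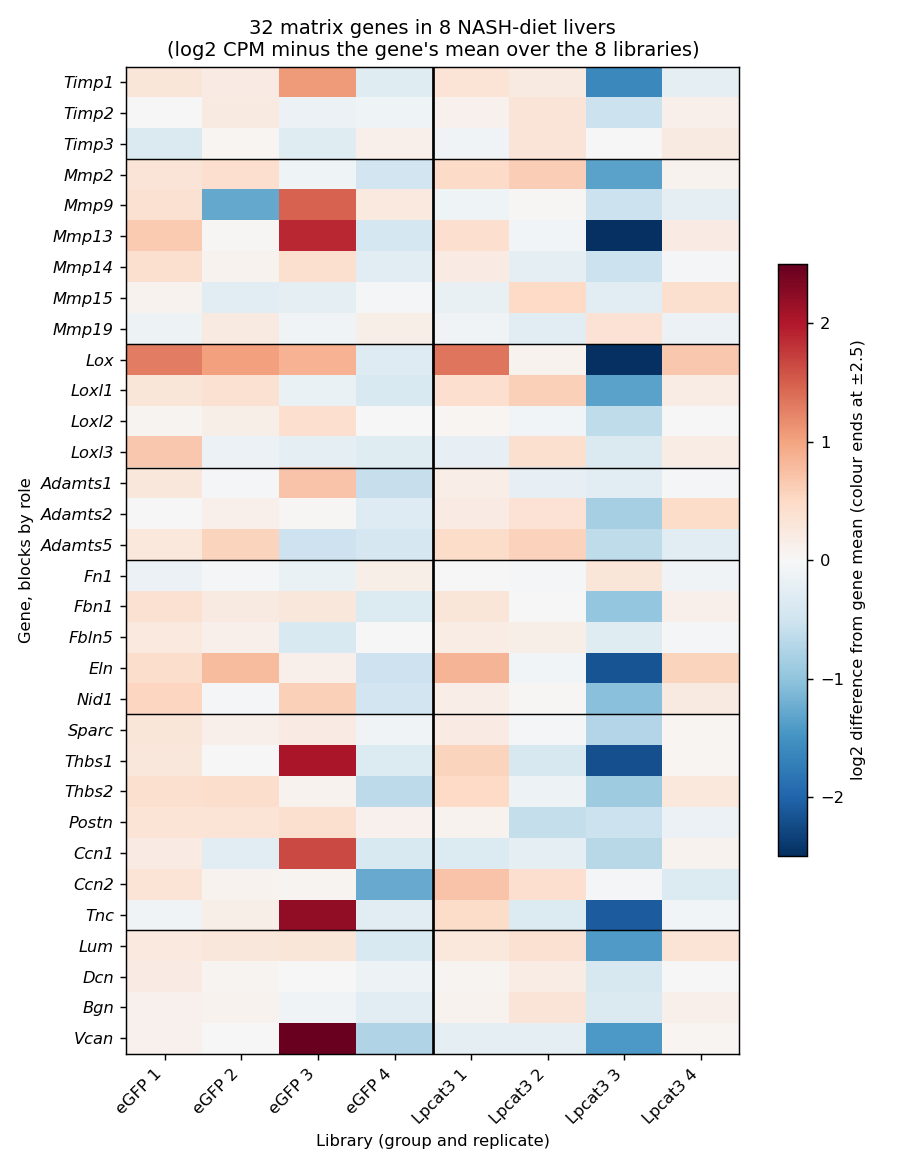
Log2 CPM of the 32 genes (blocks from top to bottom: inhibitors, MMPs, lysyl oxidases, ADAMTS proteases, glycoproteins of fibres and basement membrane, matricellular proteins, proteoglycans) in each library, as the difference from that gene's mean over the 8 libraries. The column of Lpcat3 replicate 3 is blue for most genes, and that of eGFP replicate 3 is deep red for Vcan, Tnc, Thbs1, Mmp13, Ccn1 and Mmp9.

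Markers of several cell types were also uneven across the libraries. Summed over 8 myofibroblast genes, which include Col1a1, Col1a2 and Col3a1, the level was 66.8 CPM in Lpcat3 replicate 3 and 195 to 232 CPM in the other Lpcat3 libraries, against 176 to 226 CPM in the eGFP group. Most of that drop lay in the collagens, at 13.1 (Col1a1), 14.9 (Col1a2) and 24.1 CPM (Col3a1) in Lpcat3 replicate 3. In the other Lpcat3 libraries they were at 65.7 to 82.9, 36.8 to 47.1 and 81.4 to 88.9 CPM. Acta2 was also lowest in Lpcat3 replicate 3 (1.05 CPM), but Myl9 (1.01 CPM) was not, and Tpm2 was highest in it (12.3 CPM). Of the myofibroblast list 5 of 6 tested genes were lower in the Lpcat3 group (median log2 fold change -0.17), and Tagln and Cnn1 were too low to test. Lpcat3 replicate 3 was the lowest library for 4 of the 6. By the codes in the sample titles, 2 of 6 were lower within 1290 and 1317, which do not hold that library. Within 1344 and 1345, which do, 6 of 6 were lower. The summed level of 12 stellate cell markers was 503 CPM in Lpcat3 replicate 3 and 509 to 595 CPM elsewhere, a narrow range. Reln, at 179 to 253 CPM, was the largest part of that sum, and single markers went both ways. Rgs5 (66.4 CPM), Pdgfrb (15.1 CPM) and Cygb (5.51 CPM) were lowest in Lpcat3 replicate 3, and Ecm1 (88.5 CPM) and Hhip (8.34 CPM) were highest in it. The summed portal fibroblast markers were at 9.25 CPM in Lpcat3 replicate 3 and at 18.9 to 19.5 CPM in the other Lpcat3 libraries, against 14.3 to 20.1 CPM in the eGFP group. Most of that drop lay in Dpt (2.4 CPM, against 6.4 to 8.91 CPM in the other Lpcat3 libraries) and Entpd2 (3.36 against 5.65 to 6.58 CPM). Of 6 tested portal fibroblast markers, 2 were lowest in Lpcat3 replicate 3, and Thy1 (0.959 CPM) had its highest Lpcat3-group value there. The summed cholangiocyte markers were at 57.4 CPM in Lpcat3 replicate 3 and at 103 to 147 CPM in the other Lpcat3 libraries, against 55.8 to 105 CPM in the eGFP group. Spp1 alone carried most of that difference, at 28.4 CPM in Lpcat3 replicate 3 and 70.4 to 104.6 CPM in the other Lpcat3 libraries. In the eGFP group Spp1 was at 27.1 to 69.6 CPM. The summed neutrophil markers stood at 22.5 CPM in eGFP replicate 3 and at 4.99 to 11.2 CPM in the other 7 libraries, with Ly6g at 0 in all eGFP libraries. The summed macrophage markers ran from 460 to 718 CPM in the eGFP group and from 343 to 441 CPM in the Lpcat3 group, with 14 of 15 lower (7 of them at an unadjusted p under 0.05 in edgeR, 0 at an adjusted p). The endothelial list was lower in 12 of 12 genes (4 at an unadjusted p under 0.05, 0 at an adjusted p), with sums of 820 to 933 CPM in the eGFP group and 698 to 869 CPM in the Lpcat3 group. Of all genes tested, 51.5% were lower, and 5.18% were lower at an unadjusted p under 0.05 in edgeR. The hepatocyte sum was highest in Lpcat3 replicate 3 (82960 CPM) and lowest in eGFP replicate 3 (41100 CPM). The part of these cell types in the matrix results was not tested, and in bulk liver fewer cells of a type and less RNA per cell cannot be told apart.

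**Figure D3:**
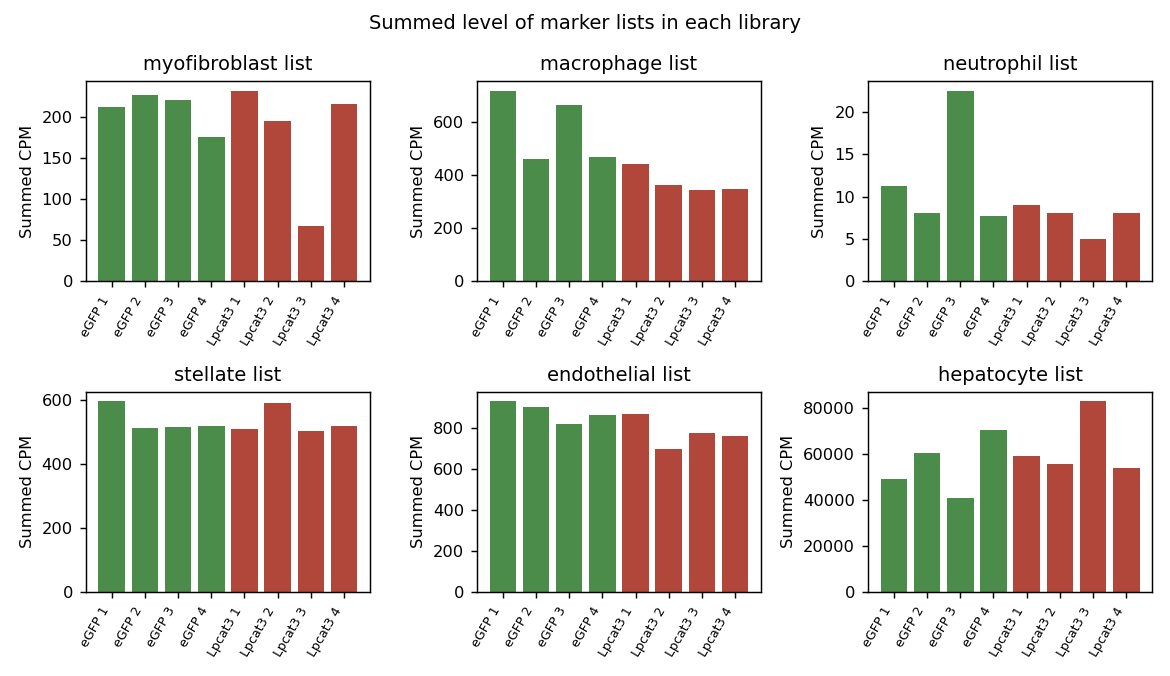
Summed CPM of 6 marker lists in each library (green, eGFP; red, Lpcat3; bars start at 0). The myofibroblast bar of Lpcat3 replicate 3 (66.8 CPM) and the neutrophil bar of eGFP replicate 3 (22.5 CPM) stand out, while the stellate bars stay between 503 and 595 CPM. The myofibroblast list includes Col1a1, Col1a2 and Col3a1, which hold most of the drop in Lpcat3 replicate 3. Reln is the largest part of the stellate sum, and single stellate markers went both ways in that library.

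The 3 inhibitors did not move as a group. Timp3, a matrix-bound inhibitor, was at 46.0, 60.9, 48.1 and 64.9 CPM in eGFP replicates 1 to 4 and at 55.5, 73.9, 59.8 and 68.9 CPM in Lpcat3 replicates 1 to 4. The groups overlapped, at 0.23 ± 0.13 log2 units (fold change ± SE; edgeR adjusted p = 0.637, exact permutation p = 0.2). Timp2, which also helps activate pro-MMP2, was nearly level at 21.7 ± 2.6 CPM in the eGFP and 22.1 ± 5.11 CPM in the Lpcat3 group (SD, n = 4 each). Timp1, the inhibitor commonly induced in fibrotic liver, was at 1.26, 1.18, 2.15 and 0.826 CPM in the eGFP libraries and at 1.29, 1.19, 0.336 and 0.875 CPM in the Lpcat3 libraries. Its highest value was in eGFP replicate 3 and its lowest in Lpcat3 replicate 3, and its log2 fold change went from -0.55 with all libraries to 0.03 without both. Timp1 lies within the span of Syn1 and Timp3 within that of Syn3, whose own mean levels were 1.95 and 26.3 CPM, and how counting treated strand is not given in the sources used here.

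The MMPs split by library more than by group. Mmp19, a broad-spectrum secreted MMP, had the highest CPM of the 6 at 50.8, 64.7, 52.3 and 61.9 in eGFP replicates 1 to 4 and 52.6, 45.9, 71.4 and 50.3 in Lpcat3 replicates 1 to 4. It was one of the few genes highest in Lpcat3 replicate 3, and its log2 fold change was -0.06 (SE 0.14; edgeR adjusted p = 0.897). Without both replicates 3 it was -0.25 (edgeR unadjusted p = 0.0355, adjusted p = 0.928). That fit leaves out the gene's highest value, so its p is no independent check. Mmp14, the membrane-bound activator of MMP2, was at 34.02, 27.5, 34.3 and 21.6 CPM in the eGFP libraries and at 29.8, 21.8, 17.7 and 25.0 CPM in the Lpcat3 libraries. These overlapped (log2 fold change -0.32, SE 0.19; edgeR adjusted p = 0.646). Mmp15, another membrane-bound MMP, was at 27.6 ± 3.07 CPM in the eGFP group and 32.8 ± 8.77 CPM in the Lpcat3 group, with its top values in Lpcat3 replicates 2 and 4 (41.7 and 39.0 CPM). Mmp2, the gelatinase of stromal cells, was at 7.4 ± 1.99 and 7.64 ± 3.51 CPM. Mmp9, the gelatinase of myeloid cells, was scarce at 0.286 to 1.93 CPM in the eGFP and 0.479 to 0.707 CPM in the Lpcat3 libraries. Mmp13, the main interstitial collagenase of rodents, was at 6.17, 4.04, 14.5 and 2.89 CPM in the eGFP libraries and at 5.25, 3.75, 0.623 and 4.57 CPM in the Lpcat3 libraries. It was thus highest in eGFP replicate 3 and lowest in Lpcat3 replicate 3, and its log2 fold change was -0.95 (SE 0.61; edgeR adjusted p = 0.662) with both and 0.05 without them.

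Lysyl oxidases, which start covalent crosslinks in collagen and elastin, gave no separation of the groups either. Loxl2 was at 22.3, 23.5, 28.4 and 21.4 CPM in the eGFP libraries and at 21.99, 20.1, 13.6 and 21.1 CPM in the Lpcat3 libraries, a difference of -0.32 ± 0.15 log2 units (SE; edgeR adjusted p = 0.605, exact permutation p = 0.0571). Only Lpcat3 replicate 1 reached above the lowest eGFP library, and without both replicates 3 the log2 fold change was -0.09. Loxl2 overlaps the noncoding gene Gm27177, itself at a mean of 18.3 CPM, so its reads are uncertain. Lox was at 3.54, 2.94, 2.64 and 1.16 CPM in the eGFP libraries and at 3.66, 1.55, 0.0479 and 2.31 CPM in the Lpcat3 libraries. The low value of Lpcat3 replicate 3 was 1 read, where the other libraries had 28 to 90 reads. Loxl1, which acts on elastin, was at 3.45 ± 0.855 CPM in the eGFP and 3.59 ± 1.61 CPM in the Lpcat3 group, and Loxl3 was at 2.43 ± 0.873 and 2.4 ± 0.585 CPM.

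The ADAMTS proteases overlapped between the groups. Adamts1, which cuts versican and other proteoglycans, was at 28.6, 22.8, 38.9 and 15.7 CPM in the eGFP libraries and at 26.6, 20.6, 19.4 and 22.9 CPM in the Lpcat3 libraries. All Lpcat3 values lay inside the eGFP range (log2 fold change -0.25, SE 0.24; edgeR adjusted p = 0.756). Adamts2, which removes the N-terminal propeptide of procollagen, was at 10.7, 11.8, 11.1 and 8.67 CPM in the eGFP libraries and at 12.4, 13.9, 6.09 and 14.9 CPM in the Lpcat3 libraries. With all 8 libraries its log2 fold change was 0.16 (edgeR adjusted p = 0.841). Without both replicates 3 it was 0.40 (edgeR unadjusted p = 0.0162, adjusted p = 0.928). That fit leaves out the gene's lowest value, in Lpcat3 replicate 3, so its p is no independent check. Adamts5, an aggrecan- and versican-cutting protease, was at 5.84 ± 2.08 and 6.13 ± 2.32 CPM.

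Among glycoproteins of fibres and basement membranes, fibronectin had its extremes in the same libraries as several other genes, but in the opposite order. Fn1 was at 2169, 2348, 2135 and 2659 CPM in eGFP replicates 1 to 4 and at 2385, 2324, 2959 and 2243 CPM in Lpcat3 replicates 1 to 4. It was highest in Lpcat3 replicate 3 and lowest in eGFP replicate 3, the reverse of the order seen in 9 of the 32 genes, and its log2 fold change was 0.09 (SE 0.13; edgeR adjusted p = 0.833). Nid1, the basement membrane linker nidogen, was at 93.0, 62.5, 96.3 and 45.6 CPM in the eGFP libraries and at 72.0, 65.1, 31.0 and 74.7 CPM in the Lpcat3 libraries. Its spread within a group was wider than the difference between them (log2 fold change -0.29, SE 0.31; edgeR adjusted p = 0.772). Fibrillin (Fbn1), the microfibril scaffold, was at 24.3 ± 4.96 and 20.7 ± 6.72 CPM in the eGFP and Lpcat3 groups. Elastin (Eln) was at 4.2 ± 1.51 and 3.82 ± 2.37 CPM, and its lowest library was Lpcat3 replicate 3 at 0.767 CPM. Fbln5, which helps assemble elastic fibres, hardly differed at 8.98 ± 1.6 and 8.94 ± 1.31 CPM.

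Matricellular genes held the one gene whose groups did not overlap, and several genes with very uneven values. Postn, which encodes periostin, a fibroblast product that binds collagen and integrins, was at 21.96, 22.1, 22.8 and 18.7 CPM in eGFP replicates 1 to 4 and at 18.5, 11.5, 12.1 and 15.8 CPM in Lpcat3 replicates 1 to 4. Every Lpcat3 library lay below every eGFP library, though eGFP replicate 4 and Lpcat3 replicate 1 nearly met. The fold change was -0.56 ± 0.15 on the log2 scale (SE). In edgeR the unadjusted p was 0.00418 and the adjusted p 0.564. The exact permutation p was 0.0286, the smallest that 70 relabellings allow. Any gene without overlap of the groups has that exact p, so it adds nothing to the lack of overlap. Over the 19 alternatives, which reuse these libraries, its log2 fold change stayed between -0.70 and -0.38. Its unadjusted p was under 0.05 in all 19. The adjusted p ran from 0.137 to 1, and with library totals in place of TMM scaling the groups overlapped. The endothelial marker Cdh5, named after its values were seen, also did not overlap, at 60.2 to 68.5 CPM in the eGFP and 43.7 to 56.6 CPM in the Lpcat3 libraries (edgeR adjusted p = 0.564). Of all genes tested, 2.24% were without overlap in that direction. The part of the endothelial and macrophage markers in the Postn difference was not tested.

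**Figure D4:**
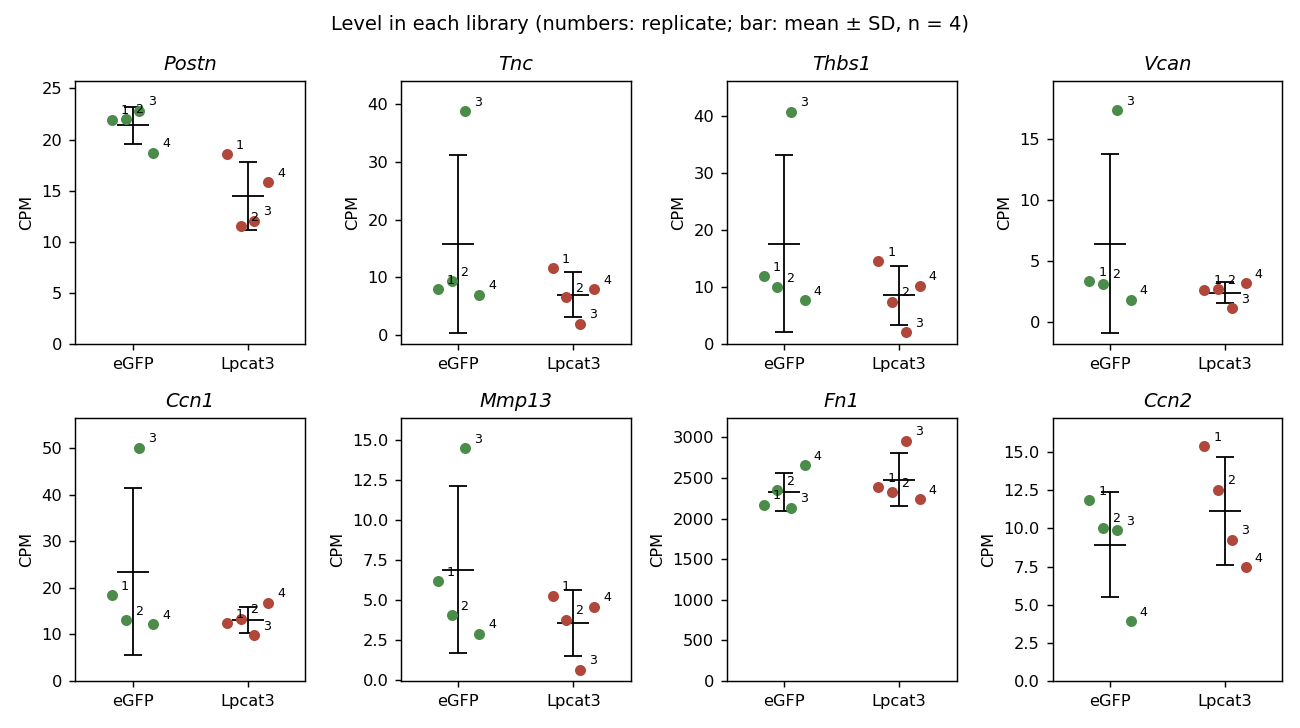
CPM of 8 of the genes in each library (numbers give the replicate; bars are mean ± SD, n = 4 per group). Postn separates the groups. Tnc, Thbs1, Vcan, Ccn1 and Mmp13 each have eGFP replicate 3 far above the other 7 libraries, and Fn1 and Ccn2 do not.

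Tenascin C (Tnc), an adhesion-modulating protein of wound matrix, was at 7.9, 9.27, 38.9 and 6.98 CPM in the eGFP libraries and at 11.5, 6.58, 1.97 and 7.96 CPM in the Lpcat3 libraries. Thbs1, the thrombospondin that activates latent TGF-beta, was at 12.0, 9.97, 40.8 and 7.76 CPM against 14.5, 7.47, 2.16 and 10.3 CPM. Ccn1, a matricellular target of the YAP and TEAD factors, was at 18.4, 13.1, 50.1 and 12.2 CPM against 12.4, 13.3, 9.78 and 16.8 CPM. In all 3 genes eGFP replicate 3 was far above every other library, 4.92-fold, 4.1-fold and 3.83-fold over the median of the other eGFP libraries. Their log2 fold changes of -1.17 (SE 0.65), -1.03 (SE 0.63) and -0.84 (SE 0.44) did not pass (edgeR adjusted p = 0.635, 0.651 and 0.621). Without both replicates 3 they were 0.11, 0.12 and -0.04.

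Ccn2, the connective tissue growth factor and a close relative of Ccn1, did not share that pattern. It was at 11.9, 10.05, 9.88 and 3.92 CPM in the eGFP libraries and at 15.4, 12.5, 9.25 and 7.44 CPM in the Lpcat3 libraries. Its difference of 0.32 ± 0.33 log2 units (SE; edgeR adjusted p = 0.77) had the opposite sign to that of Ccn1, and the difference between the 2 genes was not tested. Sparc, the most abundant matricellular gene in CPM, was at 114, 100.1, 106 and 86.3 CPM in the eGFP libraries and at 106, 88.7, 55.6 and 94.7 CPM in the Lpcat3 libraries (log2 fold change -0.23, SE 0.18; edgeR adjusted p = 0.69). Thbs2 was at 8.67 ± 2.64 CPM in the eGFP and 8.05 ± 3.01 CPM in the Lpcat3 group.

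Of the 4 proteoglycans, 3 small leucine-rich ones were nearly level between the groups and versican was not. Dcn, which binds collagen fibrils and TGF-beta, was at 256, 234, 221 and 205 CPM in the eGFP libraries and at 233, 254, 168 and 224 CPM in the Lpcat3 libraries (log2 fold change -0.06, SE 0.13; edgeR adjusted p = 0.896). Bgn was at 169.5 ± 19.7 and 182 ± 34.6 CPM. Lumican (Lum), another fibril regulator, was at 14.7 ± 2.99 and 13.8 ± 5.89 CPM, with Lpcat3 replicate 3 at 5.03 CPM and the other Lpcat3 libraries between 16.1 and 17.4 CPM. Vcan was at 3.38, 3.15, 17.4 and 1.86 CPM in the eGFP libraries and at 2.67, 2.69, 1.15 and 3.22 CPM in the Lpcat3 libraries. Its difference of -1.40 ± 0.69 log2 units (SE; edgeR adjusted p = 0.607) was the most negative of the 32, and it was -0.19 without eGFP replicate 3.

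Promoter sequences are shown for Mmp13, Ccn1, Tnc and Vcan, which shared a peak in eGFP replicate 3, and for Postn, which separated the groups. RefSeq windows on build GRCm38.p6 were matched for 18 of the 32 genes, and where a gene had several the most downstream start is shown. Motifs were searched in every window, and a gene was counted where any of its windows matched. Each line gives the 250 bases before the start, 5′ to 3′ on the gene's strand, for Mmp13 chr9:7272264-7272513 (plus), Ccn1 chr3:145649986-145650235 (minus), Tnc chr4:64046937-64047186 (minus), Vcan chr13:89742513-89742762 (minus) and Postn chr3:54360857-54361106 (plus). Capitals mark matches to the motifs described after the sequences.
Mmp13: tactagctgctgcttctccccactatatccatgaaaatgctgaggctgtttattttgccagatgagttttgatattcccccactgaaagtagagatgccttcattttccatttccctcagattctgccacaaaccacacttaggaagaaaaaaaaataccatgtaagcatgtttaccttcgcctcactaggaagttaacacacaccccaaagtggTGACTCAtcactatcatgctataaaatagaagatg
Ccn1: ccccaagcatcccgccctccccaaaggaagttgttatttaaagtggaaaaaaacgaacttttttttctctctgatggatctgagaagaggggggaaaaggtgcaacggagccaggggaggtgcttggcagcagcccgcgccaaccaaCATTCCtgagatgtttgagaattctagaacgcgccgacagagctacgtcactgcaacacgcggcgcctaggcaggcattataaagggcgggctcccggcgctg
Tnc: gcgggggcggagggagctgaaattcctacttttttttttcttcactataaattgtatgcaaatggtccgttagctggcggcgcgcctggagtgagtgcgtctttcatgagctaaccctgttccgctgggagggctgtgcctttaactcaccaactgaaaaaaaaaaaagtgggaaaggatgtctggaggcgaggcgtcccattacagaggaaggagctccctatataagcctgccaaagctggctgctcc
Vcan: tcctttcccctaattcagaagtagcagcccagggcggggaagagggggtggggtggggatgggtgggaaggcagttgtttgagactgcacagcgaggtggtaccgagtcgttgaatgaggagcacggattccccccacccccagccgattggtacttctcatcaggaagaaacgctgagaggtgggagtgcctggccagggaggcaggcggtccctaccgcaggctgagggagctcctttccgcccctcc
Postn: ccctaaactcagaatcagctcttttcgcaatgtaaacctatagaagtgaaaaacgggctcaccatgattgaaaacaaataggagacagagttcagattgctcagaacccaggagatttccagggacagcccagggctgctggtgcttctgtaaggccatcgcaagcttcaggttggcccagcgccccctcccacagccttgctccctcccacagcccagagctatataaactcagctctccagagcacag
The windows were searched on both strands from 250 bases before to 50 after the start for the AP-1 motif TGANTCA, the TEAD motif CATTCC and the serum response factor motif known as the CArG box, and no window held more than 1 match. The AP-1 motif was found in 1 of 18 genes, Mmp13, where it begins 35 bases before the start, and in 8.97% of all 27025 genes with a window. The TEAD motif was found in 3 of 18, Ccn1, Nid1 and Timp1, and in 16.6% of all genes, and it begins 103 bases before the start in Ccn1. The CArG box was found in 0 of 18 and in 1.81% of all genes. Of the 4 genes shown for their peak in eGFP replicate 3, Mmp13 held the AP-1 motif, Ccn1 the TEAD motif, and Tnc and Vcan neither. Nid1 and Timp1, which hold the TEAD motif, were also highest in that library. So were Mmp14, Adamts1 and Postn, which hold none of the motifs. Thbs1, Mmp9 and Loxl2, also highest in eGFP replicate 3, were not searched, and a match is only a match of letters.

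The codes in the sample titles divide the libraries unevenly, and their meaning is not given. Codes 1290 and 1317 hold Lpcat3 replicate 1 and eGFP replicates 1 to 3, and codes 1344 and 1345 hold Lpcat3 replicates 2 to 4 and eGFP replicate 4. Within both divisions 9 of the 32 genes were lower in the Lpcat3 group, 9 were higher in both, and 14 differed in direction. The median log2 difference was -0.015 within the first and 0.06 within the second. Postn was lower in both, by a log2 difference of -0.26 and -0.52. Vcan was at -1.08 and 0.21, and Ccn1 at -0.88 and 0.09, so for these the lower level rested on the division that holds eGFP replicate 3. Ccn2 was higher in both, at 0.54 and 1.26, the second being set against eGFP replicate 4 alone, which had its lowest value. With the division as a term, 12 of 32 genes were lower and Postn was at -0.38 (edgeR unadjusted p = 0.0127, adjusted p = 1).

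**Figure D5:**
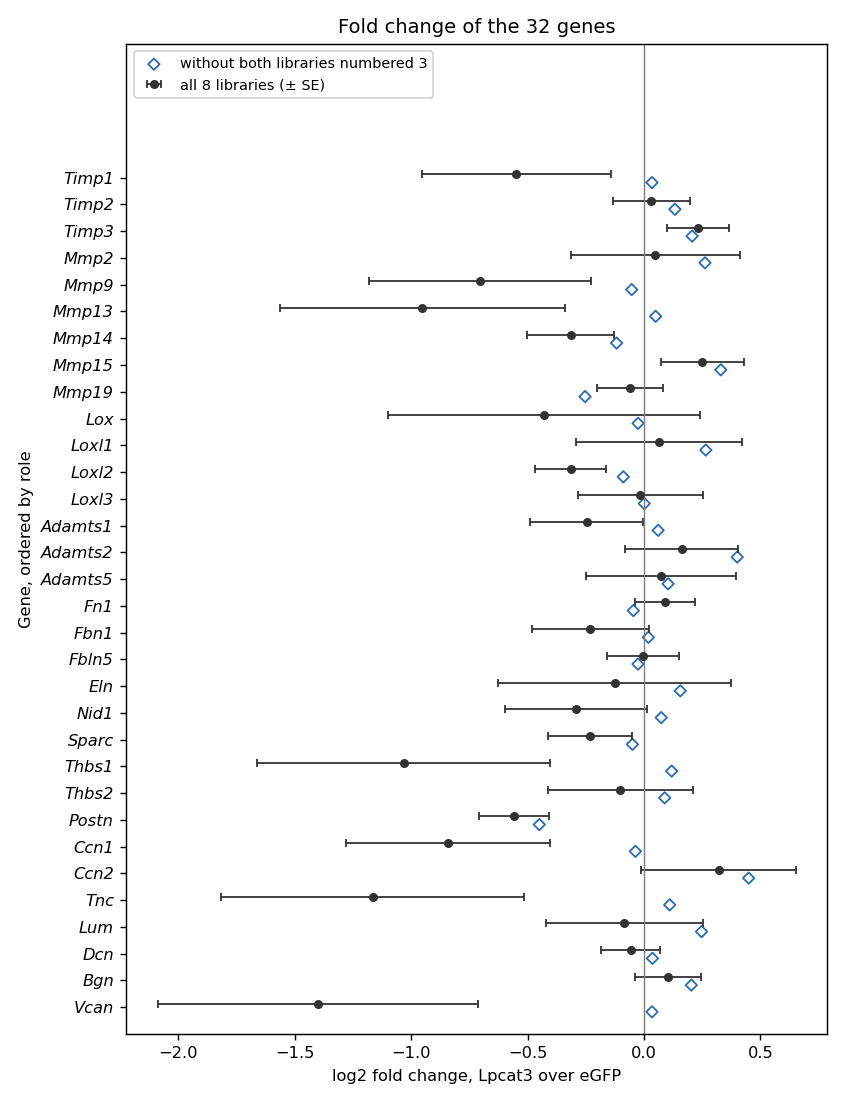
Log2 fold change of each of the 32 genes, Lpcat3 over eGFP, with all 8 libraries (filled points ± SE) and without eGFP replicate 3 and Lpcat3 replicate 3 (open diamonds). The far negative points of Vcan, Tnc, Thbs1, Mmp13 and Ccn1 move to between -0.04 and 0.12 without those libraries, and Postn stays at -0.45.

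A wider list of 90 other matrix genes was read for comparison (other MMPs, ADAMTS proteases, laminins, fibulins and latent TGF-beta binding proteins among them). Of 75 tested, 35 were higher and 40 lower, with a median log2 fold change of -0.03, and 0 passed in edgeR at an adjusted p under 0.05. At an unadjusted p under 0.05, 2 were higher (3.3% of all genes were) and 1 was lower (5.18%). The lower one was Mmp27, an MMP, at 4.37 ± 2.27 CPM in the eGFP group and 2.11 ± 0.762 CPM in the Lpcat3 group. The higher ones were Fbln1, an elastic fibre and basement membrane protein, at 1.03 ± 0.366 against 1.95 ± 0.986 CPM, and Mmp7, an MMP made by epithelial cells, at 0.436 ± 0.33 against 1.22 ± 0.766 CPM. Mmp7 was highest in Lpcat3 replicate 2 and lowest in eGFP replicate 4, and so was the summed level of the cholangiocyte markers (147 and 55.8 CPM), 6 of 8 of which were higher in the Lpcat3 group. Among them Krt7 and Epcam were at 0.8 and 2.1 CPM in the eGFP and 1.47 and 3.94 CPM in the Lpcat3 group on average (edgeR adjusted p = 0.587 and 0.581), and their part in the Mmp7 values was not tested. By p the next were Adamts4 (log2 fold change -1.26), Mmp23 (0.43) and Adamts12 (-0.73), with edgeR adjusted p of 0.598 to 0.603. Of 17 collagen genes 14 were lower, with a median of -0.21 and none past the adjusted threshold (0 of 17). Lpcat3 replicate 3 was the lowest library for 14 of the 17, and within codes 1290 and 1317, which do not hold it, 6 of 17 were lower, against 13 of 17 within codes 1344 and 1345, which do.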

How the data were processed

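Whole-liver RNA was sequenced from 4 Lpcat3 and 4 eGFP libraries. Per the labels' protocols, frozen liver was extracted in TRIzol, depleted of ribosomal RNA, and made into stranded libraries read from one end for 101 cycles. The authors deposited raw counts per NCBI gene number, 1 column per library, joined to samples by the codes in the titles. The submitters' processing notes name bcl2fastq 2.20, DESeq2 and build GRCm39. Which aligner and counter were used, and with which strand setting, is not given in the sources used here.

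Symbols came from an NCBI table of GRCm38, which matched 39397 of 40838 rows (99.5% of counts). Genes were filtered with filterByExpr (minimum count 10), and 17438 were tested with edgeR 4.0.16 (R 4.3.3; TMM, robust glmQLFit, glmQLFTest, group as the only term), adjusted by Benjamini-Hochberg over all genes and called at 0.05. CPM used TMM-scaled totals, and within-code differences used log2 CPM with a prior count of 2. Exon lengths came from GENCODE M21 (GRCm38) and serve only to scale levels. Of the 32 genes, 32 passed the filter, and the spans of 14 overlap another gene. Exact permutation tests were two-sided over 70 relabellings. The steps were tested on simulated data, and replicates of a group differed by more than sampling noise.

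The genes, lists and tests were chosen with earlier results of these data known. Values in every library are given for the one gene with an unadjusted p under 0.05 or without overlap, for the gene with the highest CPM and the one with the smallest p in each of 7 roles, and for Lpcat3. The other genes shown by library (Timp1, Mmp13, Lox, Adamts2, Tnc, Thbs1, Ccn1 and Ccn2) were chosen after their values were seen. Of the wider list, the 6 smallest p-values are named. Alternatives were other scalings and filters, DESeq2 1.42.0, limma-voom 3.58.1, no robust estimation, a replicate block, the code division as a term, and libraries left out.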

Additional observations from a re-analysis of the deposited data

Results flagged for a closer look

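Within each group of 4 libraries, the gap between the highest or lowest value and its neighbour was compared with the range of the group, for the 32 genes and Lpcat3. Of 66 such groups 7 had a value farther out than Dixon's 95% limit, 10.6%, where chance alone gives about 1 in 20, and 4 of the 7 were in eGFP replicate 3. Tnc was at 38.87 CPM in eGFP replicate 3, with the next eGFP library at 9.272 CPM, and Vcan was at 17.37 CPM there, with the next at 3.379 CPM. Thbs1 was at 40.84 CPM in the same library against 11.98 CPM in the next, and Ccn1 at 50.12 against 18.39 CPM. Lum was low in both groups, at 5.034 CPM in Lpcat3 replicate 3 and at 10.24 CPM in eGFP replicate 4. Loxl3 was high in eGFP replicate 1, at 3.733 CPM against 2.124 CPM in the next library.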

How the results depend on the processing

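No gene of the 32 passed an adjusted p under 0.05 under any of the 19 alternatives (0 each time), and Postn, Timp3, Mmp9, Mmp14, Mmp15, Loxl2, Adamts2, Sparc, Ccn1 and Ccn2 kept their direction in every one that tested them. Mmp9 was not tested with the filter at a mean of 1 CPM. Over all genes, the count of 1 became 3 with library totals, 0 with no filter, 51 with DESeq2, 2 without robust estimation, 0 with the replicate block, 0 with the code division and 0 without both replicates 3, and ran from 0 to 7 on leaving out 1 library. Library totals lowered the median of all genes to -0.13.

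Genes of the 32 at an unadjusted p under 0.05 numbered 2 with DESeq2, 2 with the replicate block, 2 with the code division and 3 without both replicates 3, and 1 to 6 on leaving out 1 library, the most without eGFP replicate 4. Genes without overlap numbered 0 with library totals and 2 without both replicates 3, and 1 to 2 on leaving out 1 library. Lower genes numbered 12 with the code division and 10 without both replicates 3, with a median of 0.05 and 0.06, and 17 to 26 on leaving out 1 library. Lpcat3 passed with library totals (log2 fold change 1.115), with DESeq2 (1.25) and without Lpcat3 replicate 1, in a range of 1.103 to 1.359 on leaving out 1 library.

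Log2 fold changes turned as follows, none past the adjusted threshold, and the cause was not tested. Without both replicates 3 they were -0.046 for Fn1, 0.00089 for Loxl3, 0.019 for Fbn1, 0.034 for Timp1, 0.034 for Vcan, 0.036 for Dcn, 0.0497 for Mmp13, 0.061 for Adamts1, 0.074 for Nid1, 0.089 for Thbs2, 0.11 for Tnc, 0.12 for Thbs1, 0.16 for Eln and 0.25 for Lum. With the code division they were 0.022 for Loxl3, 0.025 for Dcn, 0.047 for Nid1, 0.061 for Fbln5, 0.064 for Fbn1, 0.11 for Adamts1, 0.17 for Lum, 0.24 for Lox, 0.32 for Thbs2 and 0.36 for Eln. With library totals they were -0.015 for Bgn, -0.029 for Fn1, -0.037 for Adamts5, -0.044 for Loxl1, -0.061 for Mmp2 and -0.079 for Timp2. With the replicate block they were -0.023 for Loxl1, -0.043 for Mmp2 and 0.0075 for Loxl3. Adamts5 was at -0.0204 in limma-voom, and Fbln5 at 0.00022 in DESeq2 and 1.9e-05 with DESeq2's factors in edgeR. On leaving out 1 library the ranges were -0.12 to 0.29 for Adamts5, -0.13 to 0.053 for Dcn, -0.45 to 0.21 for Eln, -0.12 to 0.086 for Fbln5, -0.0065 to 0.16 for Fn1, -0.12 to 0.34 for Loxl1, -0.16 to 0.27 for Loxl3, -0.22 to 0.19 for Lum, -0.21 to 0.017 for Mmp19, -0.15 to 0.32 for Mmp2, -0.304 to 0.104 for Thbs2 and -0.074 to 0.18 for Timp2.

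Replicate numbers are shared by the groups, but same-numbered libraries did not deviate together (correlations of 0.285, -0.0689, -0.4 and -0.124), so the block is no pairing. Genes under about 1 CPM, such as Mmp9, rest on few reads per library.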
